A study of Homo sapiens with 21 samples.

Results

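The long intergenic noncoding RNAs described here are the genes whose name in the deposited HNRNPK PAR-CLIP tables is LINC followed by digits alone. This rule found 192 genes among the 18322 gene names that carry at least 1 binding cluster in the 4 libraries, and 2732 clusters in all. The name is a placeholder that gene nomenclature gives to a noncoding RNA whose function was not known, and several members have since received a functional name. Long noncoding RNAs are transcribed and spliced like messenger RNAs, but many stay in the nucleus, and their introns, removed during splicing, are nuclear as well. A few, such as NORAD, act in the cytoplasm. HNRNPK is an RNA-binding protein with KH domains that prefers C-rich RNA, is mostly nuclear, and takes part in splicing, in nuclear retention of noncoding RNAs and in the stability and translation of cytoplasmic mRNAs.

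The libraries were made from the established cell line MDA-MB-231 (triple-negative breast cancer), either parental or carrying a CRISPR/Cas9 knockout of KRT19, which encodes the intermediate filament protein keratin 19. The labels do not say whether the KRT19 KO cells are 1 clone. In PAR-CLIP the cells take up 4-thiouridine, ultraviolet light crosslinks the protein to the labelled RNA, and crosslinked positions are read as T-to-C changes after sequencing. The cells were separated into a cytoplasmic and a nuclear fraction, RNA was recovered with an anti-HNRNPK/J antibody, and 1 library was made for each line and fraction. With 1 library per condition no difference has a replicate check, so no p-value is given, and all intervals are 95% intervals that cover counting error only (Wilson for shares, exact for ratios of 2 counts).

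The sequences below show what HNRNPK clusters in these RNAs look like, with every run of at least 3 C in capitals. They are the deposited cluster sequences 5′ to 3′ on the transcribed strand, and each equalled GRCh37 (hg19) at its position. The first lines are clusters of at most 30 nt that were the deepest of their gene, and each is printed whole.
LINC00511 intron: ctttcctttacaaattaCCCaatcacag
LINC00842 intron: gccaacaattacttttataaccaataattc
LINC01031 intron: cttatttaaaaaccaatCCCttCCCCat
Their positions were chr17:70493389-70493416 (minus strand), chr10:47133930-47133959 (minus) and chr1:193298081-193298108 (plus). The next lines are windows of 30 nt around the densest position of clusters longer than 30 nt. LINC00152, LINC00669, LINC00973 and LINC00630 are among the genes with the most reads, but showing a window of their longer clusters was decided after values were seen, and LINC00941, LINC01021 and LINC00657 were added outright at that point, because the results below turn on these genes.
LINC00152 intron: aattcatataaacatatCCCtaacaaattt
LINC00669 exon: CCCCttttttCCCCtttttaCCCaataaaa
LINC00973 exon: tatttacaCCCttatattctttCCCaaatg
LINC00630 exon: attatttCCCaataatacaaacatcacaat
LINC00941 exon: cactaattaatatatactacataatcatcc
LINC01021 intron: caataaattattaaattaaaatcaaaCCCa
LINC00657 exon, deepest: aaaattcatagggaagacttcttaaaaaca
LINC00657 exon, near its 5′ end: ctcctccagggCCCtccaggCCCtccggcc
These windows lie at chr2:87784867-87784896 (plus), chr18:37380171-37380200 (minus), chr3:98701787-98701816 (plus), chrX:102139950-102139979 (plus), chr12:30955617-30955646 (plus), chr5:27487763-27487792 (plus), chr20:34635457-34635486 (minus) and chr20:34638807-34638836 (minus). The deepest clusters of LINC00669 and LINC00973 hold several C runs within a T-rich stretch, while those of LINC00842, LINC00941 and the deepest one of LINC00657 hold none in the printed bases.

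The 4 tables held 177530 to 201726 clusters and 3252800 to 6216226 reads. KRT19 itself had 1 cluster in each cytoplasmic library (7 reads parental, 5 reads KRT19 KO) and none in the nuclear libraries, which is too few to check the genotype labels. The parental cytoplasmic table stands apart. It has no cluster outside the assembled chromosomes, against 221 to 269 in the other tables, and 230 genes with at least 50 reads were listed in it alone, against 17 to 27 in each of the other libraries. A single intronic cluster outside the LINC genes also took 323758 of its reads. Among the 230 genes were 3 LINC genes, LINC00842 with 1305 reads, LINC00894 with 376 and LINC00674 with 143. Within 100 kb of these 3 genes the other 3 tables list no cluster of any gene, while the parental cytoplasmic table lists 52, 34 and 37. They hold 12.7% of the LINC reads of that library, so the main results that rest on them are given with and without them. The reason for their absence elsewhere was not tested. Of the 201726 cluster sequences in that table, 201725 equalled the GRCh37 sequence at their listed place, and whether the 4 tables were aligned to the same set of reference sequences was not tested.

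LINC genes took a small and uneven part of HNRNPK binding. They held 769 of the clusters in the parental cytoplasmic library, 586 in KRT19 KO cytoplasm, 697 in the parental nucleus and 680 in the KRT19 KO nucleus. As a share of all clusters this was 0.381% (0.355 to 0.409), 0.330% (0.304 to 0.358), 0.348% (0.323 to 0.375) and 0.341% (0.317 to 0.368), and the intervals of the 4 libraries overlap. Shares of reads were further apart. LINC clusters held 2586 reads per 1000000 reads in clusters (rpm) in parental cytoplasm, 1645 in KRT19 KO cytoplasm, 3493 in the parental nucleus and 3378 in the KRT19 KO nucleus. Both nuclear values exceeded both cytoplasmic values, and the KRT19 KO cytoplasm was lowest. This was not particular to LINC genes. In the same order, antisense-named genes held 4367, 3826, 6519 and 7882 rpm, and genes named after a clone (RP and digits) 14747, 14424, 21611 and 24076. The order of the fractions rests on scaling to all reads in clusters. On that scale the median gene seen in both fractions was also lower in the cytoplasm, at log2 -0.65 in parental and -0.80 in KRT19 KO cells. Without the 3 genes listed in parental cytoplasm alone, that library's share of reads was 0.226% instead of 0.259%, still above the 0.164% of KRT19 KO cytoplasm.

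Most LINC genes were bound weakly. In each library 98 to 112 of the 192 genes had a cluster, with a median of 17 to 21 reads per LINC gene, against a median of 55 to 78.5 reads per gene of any name. Only 46 LINC genes had clusters in all 4 libraries, and these held 87.2% of all LINC reads. A further 83 genes were seen in 1 library alone, 71 genes had a single cluster over the 4 libraries, and 81 had at most 20 reads in total. The same counts over genes of any name were not made, so they are not shown to be particular to LINC genes. The files list no cluster with fewer than 5 reads, so a gene without a cluster may still have had reads.

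Binding was concentrated in a handful of long genes. The 5 LINC genes with the highest mean level held 49.6% of LINC reads in parental cytoplasm, 53.8% in KRT19 KO cytoplasm, 60.1% in the parental nucleus and 61.4% in the KRT19 KO nucleus. LINC00669, now named MIR924HG as the host gene of a microRNA, came first, with 2252 reads in parental cytoplasm, 1874 in KRT19 KO cytoplasm, 2902 in the parental nucleus and 2479 in the KRT19 KO nucleus. In GENCODE it is annotated at chr18:36786881-37380286 on the minus strand, and its 624 clusters span 592.6 kb of that length, 618 of them intronic. LINC00472, an RNA studied in breast cancer, followed with 1844, 1472, 1664 and 1806 reads in the same order of libraries, and 222 clusters. Reads of single genes are raw counts, and the cytoplasmic libraries hold more reads in all, so libraries are better compared in rpm. In the same order, LINC00669 had 405.6, 301.5, 820.3 and 762.1 rpm and LINC00472 332.2, 236.8, 470.4 and 555.2. In no library did either gene fall under 236.8 rpm. The order of the fractions also depends on the scaling, as given below.

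LINC00152 (CYTOR), an RNA studied for promoting growth in carcinomas, held 1360 reads in parental cytoplasm, 786 in KRT19 KO cytoplasm, 1442 in the parental nucleus and 699 in the KRT19 KO nucleus. In rpm this was 245, 126.4, 407.6 and 214.9, with both parental libraries above both KRT19 KO libraries. All 100 of its clusters were annotated as intronic, and none as exonic. A near-identical copy of this locus, MIR4435-1HG, had 1327, 1477, 1835 and 1087 reads in the same order, and 2 of the 100 LINC00152 clusters had a further exact match elsewhere in the genome, so a division of reads between the copies by the alignment was not tested.

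LINC01004, for which no role is given here, had 860, 624, 835 and 1227 reads (154.9, 100.4, 236 and 377.2 rpm). All of its 152 clusters were in the class of antisense transcripts. LINC00630 had 811, 744, 582 and 534 reads, but 146.1, 119.7, 164.5 and 164.2 rpm. Part of its 135 clusters lay over mitochondrial pseudogenes on the same strand, among them 18 over MTND5P26 and 12 over MTND2P2. Of the 135 clusters, 1 had a further exact match in the genome, and an origin of these reads in mitochondrial RNA was not tested. LINC00511, which has been linked to breast cancer growth, had 549, 183, 789 and 375 reads, lowest in KRT19 KO cytoplasm. LINC00478 (MIR99AHG), the host gene of a microRNA cluster, had 583, 319, 536 and 486 reads (105, 51.3, 151.5 and 149.4 rpm) over 193 intronic clusters. LINC01031 closed the first 10 with 184, 165, 156 and 210 reads (33.1, 26.5, 44.1 and 64.6 rpm) in 51 intronic clusters.

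LINC00973 and LINC00842 were the exceptions among the first 10. LINC00973 had 791 reads in parental cytoplasm, 590 in KRT19 KO cytoplasm, 77 in the parental nucleus and 82 in the KRT19 KO nucleus, all in 8 exonic clusters of a gene 2.04 kb long (chr3:98699902-98701940, plus strand). LINC00842 had its 1305 reads in parental cytoplasm alone. These levels are not corrected for gene length. Per kb of annotated gene, LINC00973 was first at 34.9 rpm per kb (mean of the 4 libraries), followed by LINC00641 at 5.16, LINC01004 at 3.46 and LINC00657 at 3.18, and only 4 of the first 10 by reads were among the first 10 per kb. Over the 183 genes with an annotated length, the number of clusters and the length had a Spearman rho of 0.33, given as a description, since genes of 1 library share its depth.

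**Figure D1:**
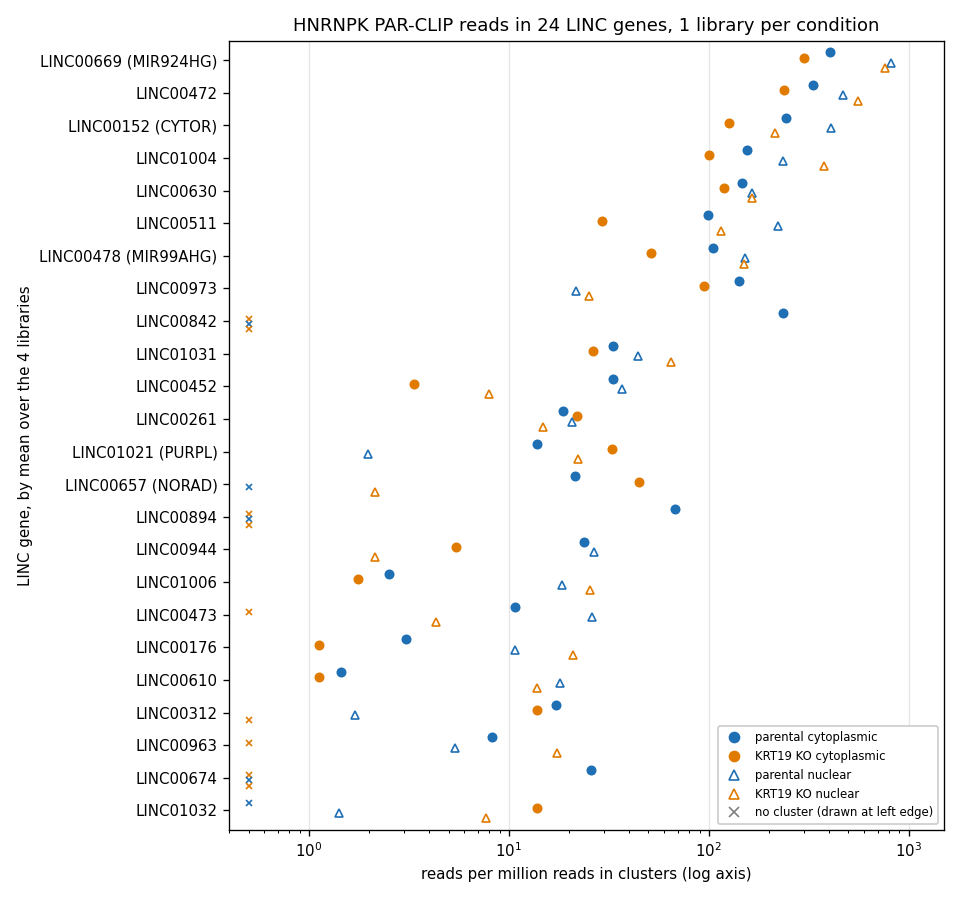
Reads in rpm (log axis) for the 24 named LINC genes with the highest mean level, 1 point per library. Circles are cytoplasmic and triangles nuclear libraries, blue is parental and orange KRT19 KO, and a cross at the left edge marks a library with no cluster. LINC00669 leads at 301.5 to 820.3, LINC00973 and LINC00657 have their cytoplasmic points to the right, and LINC00842, LINC00894 and LINC00674 appear in parental cytoplasm alone.

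LINC clusters lay mostly in introns. Introns of lincRNA genes held 79.1% of LINC clusters in parental cytoplasm (76.0 to 81.8), 77.3% in KRT19 KO cytoplasm (73.7 to 80.5), 84.6% in the parental nucleus (81.8 to 87.1) and 83.4% in the KRT19 KO nucleus (80.4 to 86.0). Exons held 7.54%, 11.1%, 4.59% and 3.97%. The remaining clusters were in the antisense class (7.17% to 10.3%), in processed transcripts (2.56% to 2.94%) or in minor classes. Of the 192 genes, 107 had intronic clusters alone, 18 exonic clusters alone, and 38 both. The intron class is that of the deposited annotation, and 12.5% of these intronic clusters touched an exon of a later GENCODE release, which lists more isoforms.

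The exonic and intronic reads of LINC genes differed in opposite directions between the fractions. Exonic LINC clusters held 412.5 rpm in parental cytoplasm and 392 in KRT19 KO cytoplasm, against 183.5 in the parental nucleus and 168.5 in the KRT19 KO nucleus. Both cytoplasmic values were above both nuclear values. Cytoplasm over nucleus gave a ratio of 2.25 (2.06 to 2.46) in the parental line and of 2.33 (2.12 to 2.56) in the knockout. Intronic LINC clusters held 1834, 1073, 2900 and 2716 rpm in the order parental cytoplasm, KRT19 KO cytoplasm, parental nucleus and KRT19 KO nucleus. For introns the same ratio came to 0.632 (0.615 to 0.6499) in the parental line and 0.395 (0.383 to 0.408) in the knockout, log2 values of -0.66 and -1.34. These intronic values depend on the scaling, since the median gene seen in both fractions had log2 values of -0.65 and -0.80, so that relative to it parental intronic LINC binding was nearly even between the fractions and the exonic excess was larger. Without the 3 genes listed in parental cytoplasm alone the parental intronic ratio was 0.552 (0.537 to 0.568). LINC00973 weighed on the exonic ratio, and leaving it out gave 1.67 (1.52 to 1.84) for the parental line and 2.07 (1.87 to 2.301) for the knockout.

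**Figure D2:**
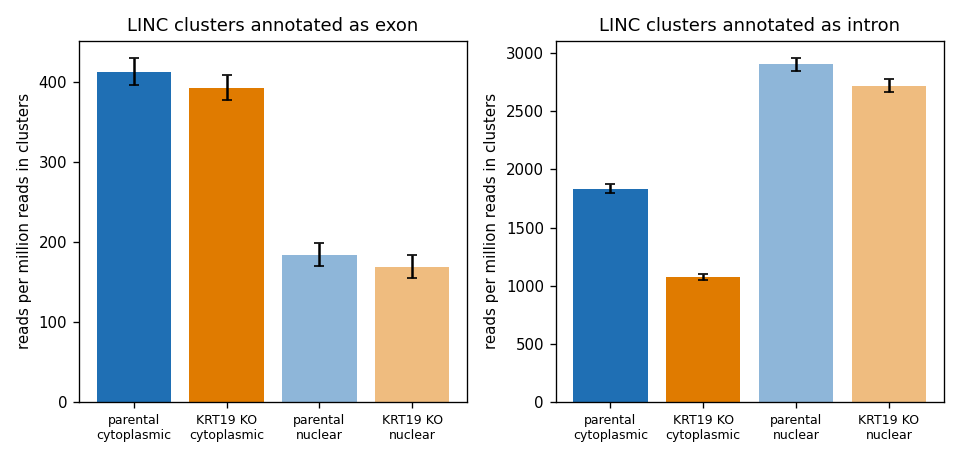
Reads, in rpm, that fell in exonic (left) and intronic (right) LINC clusters, 1 bar per library from a zero baseline, with 95% Wilson intervals for counting error. The exonic bars stand at 412.5 and 392 in the cytoplasmic libraries and at 183.5 and 168.5 in the nuclear ones, while the intronic bars are lowest in KRT19 KO cytoplasm at 1073.

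Other lincRNA genes, those with other kinds of names, showed the same order with different sizes. Their exonic ratio of cytoplasm to nucleus came to 1.32 (1.297 to 1.35) for the parental line and 1.68 (1.65 to 1.72) for the knockout, and their intronic ratio to 0.578 and 0.439. Of the exonic and intronic reads together, exons held 18.4% in LINC genes in parental cytoplasm and 31.2% in other lincRNA genes. In KRT19 KO cytoplasm the shares were 26.8% and 39.8%, in the parental nucleus 5.95% and 16.5%, and in the KRT19 KO nucleus 5.84% and 14.7%. LINC genes had the lower exonic share in all 4 libraries.

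Gene by gene, the comparison of fractions used LINC genes with at least 50 reads in both libraries together, and called a gene past a 2-fold difference on a log2 scale with 1 read added to each count. In parental cells 9 of 50 LINC genes were higher in the cytoplasm, where 18.6% of all genes tested were, and 18 were lower, where 34.7% of all genes were. Leaving out the 3 genes listed in parental cytoplasm alone, 6 of 47 were higher and 18 lower. In KRT19 KO cells 9 of 42 LINC genes were higher, where 24.2% of all genes were, and 23 were lower, where 41.2% were. Over LINC genes the median log2 ratio of cytoplasm to nucleus was -0.59 for the parental line and -1.22 for the knockout, beside -0.54 and -0.62 over all genes. These splits depend on the scaling. When the median ratio of genes seen in both libraries (-0.65 and -0.80 on the log2 scale) was set to 0, parental cells had 12 LINC genes higher (background 27.1%) and 7 lower (18.0%), and KRT19 KO cells 14 higher (35.2%) and 15 lower (22.2%). The LINC medians were then 0.06 and -0.42.

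Several LINC RNAs bound in exons stood on the cytoplasmic side. There were 18 LINC genes with at least 50 exonic reads over the 4 libraries. By exonic rpm, 11 of these were higher in the cytoplasm than in the nucleus in both lines, and 4 were lower in both. The minimum counts raw reads and the cytoplasmic libraries are deeper, so genes high in the cytoplasm pass it more readily. In the order parental cytoplasm, KRT19 KO cytoplasm, parental nucleus and KRT19 KO nucleus, LINC00261 passed with 49, 97, 0 and 0 exonic reads. LINC00085 passed mostly through the nuclei, with 0, 17, 8 and 54. The split is thus partly set by the minimum and is no separate support. The same count over all genes was not made, and the genes below are examples. LINC00657 (NORAD), an unspliced cytoplasmic RNA that binds Pumilio proteins, had 119 reads in parental cytoplasm, 280 in KRT19 KO cytoplasm, none in the parental nucleus and 7 in the KRT19 KO nucleus, all exonic. Of its 12 clusters 3 had a further exact match in the genome. The fractions do not overlap, and the ratio in the knockout was 20.9, a log2 difference of 4.20 (3.33 to 5.72). LINC00941, bound in exons in 10 of 12 clusters, had 230, 287, 17 and 13 reads in the order parental cytoplasm, KRT19 KO cytoplasm, parental nucleus and KRT19 KO nucleus. Its cytoplasm-to-nucleus ratios were 8.62 and 11.55, with log2 differences of 3.03 (2.40 to 3.91) and 3.43 (2.73 to 4.46).

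The exonic LINC00973 had ratios of 6.55 and 3.77, log2 differences of 2.69 (2.37 to 3.07) and 1.90 (1.58 to 2.26). LINC00312, with 7 exonic clusters that all lie over the protein-coding gene LMCD1 on the same strand, had 96, 86, 6 and 0 reads, and its parental log2 difference was 3.14. LINC00941 and LINC00973 were past 2-fold higher in the cytoplasm in both lines under either scaling. LINC00641 and LINC00941, like LINC00271 further on, are outside the rule for named genes and were picked after their values were seen.

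LINC00888 and LINC00667 were past 2-fold higher in the cytoplasm in the knockout without having mostly exonic clusters. LINC00888 had 29, 57, 25 and 0 reads, all in the processed-transcript class, and LINC00667 had 6, 57, 12 and 0 reads in 4 intronic clusters and 1 exonic cluster. Both were listed at 0 in the KRT19 KO nucleus alone, so no ratio is given there. The intronic LINC01021, described further on, was 7.01 times as high in the cytoplasm in the parental line and 1.48 times in the knockout.

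The LINC RNAs furthest to the nuclear side were of several classes. LINC01006 had 14 and 11 reads in parental and KRT19 KO cytoplasm and 65 and 83 in the nuclei, in sense-overlapping and processed-transcript clusters. Its nuclear level was 7.29 times the cytoplasmic one in the parental line and 14.4 times in the knockout. LINC00610 had 8, 7, 64 and 45 reads, from 1 intronic cluster per library, and RefSeq now lists this name under COMMD9, a protein-coding gene on the same strand. LINC00856 had 7 reads in parental cytoplasm, none in KRT19 KO cytoplasm, 58 in the parental nucleus and 16 in the KRT19 KO nucleus, all intronic. LINC00176, now annotated as the protein-coding C20orf204, had 17, 7, 38 and 68 reads, and 9 of its 12 clusters were exonic. In each of these genes both nuclear levels were above both cytoplasmic levels, which in at least 1 line is fixed by how they were picked. LINC00963, an RNA studied in prostate cancer, had 46, 0, 19 and 57 reads, so that its parental cytoplasm lay above the parental nucleus while it was not listed in KRT19 KO cytoplasm.

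**Figure D3:**
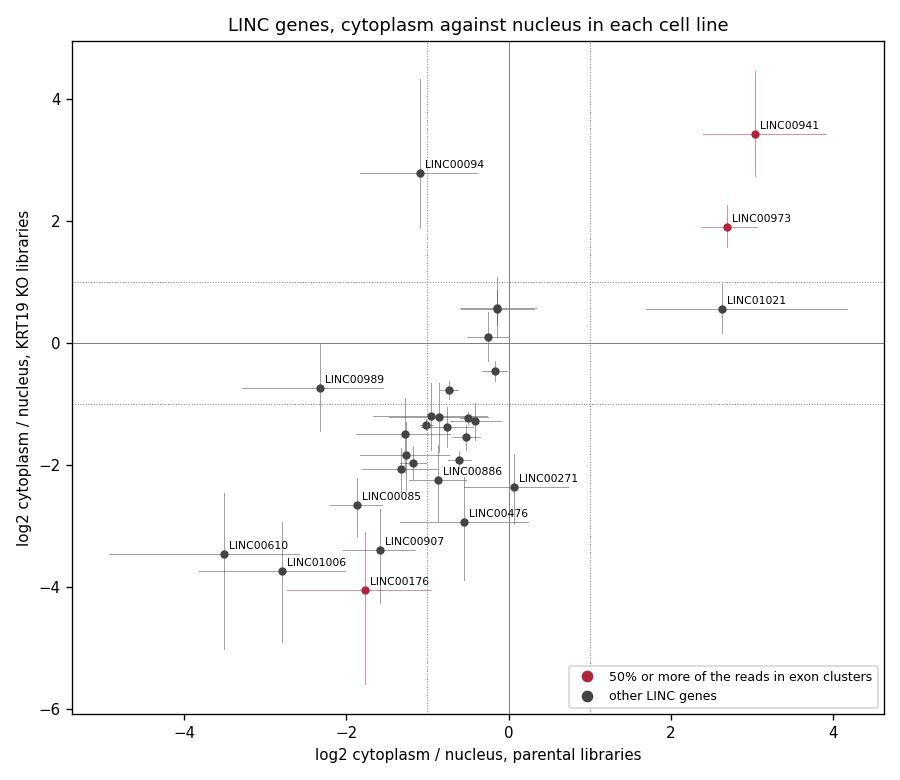
Log2 ratio of cytoplasm to nucleus, scaled to reads in clusters, in parental (horizontal axis) and KRT19 KO libraries (vertical axis) for the 30 LINC genes with at least 50 reads in each pair and a cluster in all 4 libraries, with exact 95% counting intervals as thin lines and 2-fold limits dotted. Red points have at least 50% of their reads in exonic clusters; LINC00941 and LINC00973 lie at the upper right and LINC00176 at the lower left.

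KRT19 KO cytoplasm held less intronic LINC binding than parental cytoplasm. For intronic LINC reads, knockout over parental came to 0.585 (0.567 to 0.603) in the cytoplasm and 0.936 (0.91 to 0.9635) in the nucleus. Without the 3 genes listed in parental cytoplasm alone the cytoplasmic ratio was 0.670 (0.649 to 0.691). For intronic reads of other lincRNA genes it was 0.814 in the cytoplasm and 1.07 in the nucleus. Introns outside the lincRNA classes were lower there too, at 423487 rpm in parental and 230271 rpm in KRT19 KO cytoplasm. In the parental and KRT19 KO nuclei they held 669633 and 596810 rpm. The parental cytoplasmic value includes the single cluster of 323758 reads. A lower intronic level in KRT19 KO cytoplasm was thus not particular to LINC genes. Exonic LINC reads differed less, with ratios of 0.9504 in the cytoplasm (0.897 to 1.01) and 0.918 in the nucleus (0.818 to 1.03), and both intervals include 1. Without LINC00973 the cytoplasmic exonic ratio was 1.1 (1.03 to 1.18), on the other side of 1. Because a PAR-CLIP level combines how much of an RNA is present with how much of it HNRNPK holds, those parts cannot be told apart here, and neither can a change in the composition of the rest of the library.

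By gene, 7 of 43 LINC genes were past 2-fold higher in KRT19 KO cytoplasm than in parental cytoplasm, where 20.3% of all genes tested were, and 13 were past 2-fold lower, where 22.3% of all genes were. Without the 3 genes listed in parental cytoplasm alone, 10 of 40 were lower. In the nucleus 9 of 44 LINC genes were higher (background 14.2%) and 7 lower (background 17.8%). The median log2 ratio was -0.38 over LINC genes and -0.08 over all genes in the cytoplasm, and -0.08 and -0.10 in the nucleus.

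The LINC genes lower in KRT19 KO in both fractions were LINC00452, LINC00473 and LINC00944, 3 of the 29 genes with enough reads in both fractions, where 6.04% of all such genes were lower in both. LINC00452 had 185 reads in parental cytoplasm and 131 in the parental nucleus, against 21 and 26 in the same fractions of the knockout. Its log2 differences were -3.24 (-4.03 to -2.65) and -2.17 (-2.88 to -1.60). LINC00944 had 132 and 34 reads in the cytoplasm and 94 and 7 in the nucleus, log2 differences of -2.09 (-2.71 to -1.57) and -3.45 (-4.98 to -2.53). LINC00473, a cAMP-responsive RNA whose clusters all lie over the protein-coding gene PDE10A on the same strand, had 60 and 0 reads in the cytoplasm and 92 and 14 in the nucleus, where its log2 difference was -2.51 (-3.52 to -1.78). In each of these genes both parental libraries were above both KRT19 KO libraries. Within a fraction this order is fixed by how the genes were picked, so it adds no further evidence.

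Higher in KRT19 KO in both fractions were LINC01021 and LINC00641, 2 of the 29 genes, where 4.78% of all genes were higher in both. LINC01021 (PURPL), a p53-induced RNA, had 77 reads in parental cytoplasm and 7 in the parental nucleus, against 204 and 72 in the same fractions of the knockout. Its log2 differences were 1.23 (0.86 to 1.64) and 3.31 (2.37 to 4.85), and all of its 22 clusters were intronic. LINC00641 had 96 and 390 reads in the cytoplasm and 67 and 136 in the nucleus, log2 differences of 1.85 (1.53 to 2.197) and 1.13 (0.71 to 1.59). No LINC gene was past 2-fold in opposite directions in the fractions, where 3.28% of all genes were. Across the 29 genes the cytoplasmic and nuclear log2 ratios had a Pearson r of 0.70 and a Spearman rho of 0.68, and the sign was the same in 20. This is a description of 4 libraries, since the genes of a library share its depth and scaling. Across the 7953 genes of any name the correlations were 0.27 and 0.28, and the sign was the same in 4823 (60.6%), beside 69.0% of the LINC genes.

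**Figure D4:**
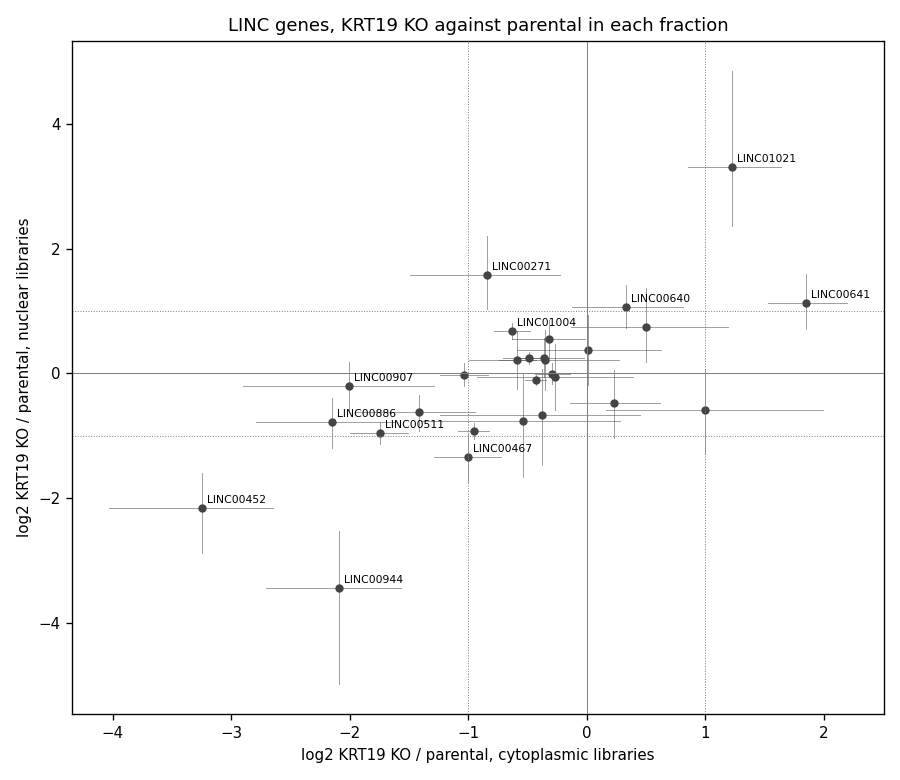
Log2 ratio of KRT19 KO to parental in the cytoplasmic (horizontal axis) and nuclear libraries (vertical axis) for the 28 LINC genes with at least 50 reads in each pair and a cluster in all 4 libraries, with exact 95% counting intervals as thin lines and 2-fold limits dotted. LINC00452 and LINC00944 lie at the lower left, LINC01021 and LINC00641 at the upper right, and LINC00271 is lower in KRT19 KO cytoplasm but higher in the KRT19 KO nucleus.

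Some further genes with large ratios within 1 fraction had few clusters. LINC01032 had 86 reads in KRT19 KO cytoplasm and none in parental cytoplasm, with 5 and 25 reads in the nuclei. LINC00158 had 7 and 47 reads in the cytoplasm of parental and KRT19 KO cells, and LINC00667 had 6 and 57. In the nucleus LINC00871 was listed at 0 in parental and at 62 reads in KRT19 KO cells, and LINC01036 had 8 and 49. All of these genes had 5 to 10 clusters over the 4 libraries.

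Of 12 LINC genes listed for a well known role, 9 had a cluster, while LINC00673, LINC00340 and LINC00338 had none under these names. Clusters under other names of these genes were not looked up. Of the 7 listed genes with enough reads in the cytoplasm, 2 were higher in KRT19 KO (LINC00657 and LINC01021), where 20.3% of all genes were. Another 3 were lower (LINC00473, LINC00478 and LINC00511), where 22.3% of all genes were. The median log2 ratio of the 7 was -0.95, against -0.38 over LINC genes and -0.08 over all genes. The list was drawn up with earlier results of these data known, so its median is a description and no independent support. In the nucleus 2 of 7 were higher (LINC00963 and LINC01021, background 14.2%) and LINC00473 was lower (background 17.8%). The nuclear median was -0.47, against -0.08 over LINC genes and -0.10 over all genes. The lower call of LINC00478 in the cytoplasm lies at the limit, at -1.03 (-1.235 to -0.834), and with the median ratio set to 0 it was -0.94, inside the limit. LINC00511 had a log2 difference of -1.74 (-1.997 to -1.504) in the cytoplasm and -0.95 (-1.13 to -0.77) in the nucleus. LINC00152 was just inside the 2-fold limit in both fractions, at -0.95 (-1.08 to -0.83) and -0.92 (-1.06 to -0.79). NORAD was higher in KRT19 KO cytoplasm by 1.06 on the log2 scale (0.76 to 1.39). LINC00261, an endoderm RNA next to FOXA2, had 104 and 137 reads in parental and KRT19 KO cytoplasm and 73 and 48 in the nuclei, and none of its 4 ratios passed 2-fold on the scale of rpm. LINC00460, studied in carcinomas, had 1 exonic cluster of 5 reads in parental cytoplasm.

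Of 9 LINC names later shown to encode a small protein, 4 had a cluster, while LINC00998, LINC01420, LINC00948, LINC00086 and LINC00087 had none. Here too, clusters under other names of the genes were not looked up. LINC00493 (SMIM26), which encodes a mitochondrial membrane protein, had 32 reads in parental and 56 in KRT19 KO cytoplasm and none in either nucleus, in 4 exonic clusters and 1 intronic cluster. LINC00665 had 30 reads in KRT19 KO cytoplasm and 9 in the parental nucleus. LINC00116 (MTLN), which encodes the mitochondrial protein mitoregulin, had 6 reads in KRT19 KO cytoplasm, and LINC00961 (SPAAR) had 11 in the parental nucleus, each in 1 exonic cluster. With so few reads only LINC00493 reached the minimum of 50 in any comparison.

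Most LINC positions were seen in a single library. When overlapping clusters of the 4 libraries were merged, 2142 LINC sites resulted, of which 1698 (79.3%, 77.5 to 80.9) came from 1 library, 327 from 2, 90 from 3 and 27 (1.26%, 0.868 to 1.83) from all 4. Over all clusters of any gene, 77.4% of sites came from 1 library and 1.68% from all 4. Sites seen once had a median of 9 reads and those seen in all 4 a median of 173 over the libraries. The 27 sites held 19.3% of LINC reads and lay in 9 genes, with 8 in LINC00472, 6 in LINC01004, 5 in LINC00669, 2 each in LINC00152 and LINC00630, and 1 each in LINC00478, LINC00511, LINC00886 and LINC00973.

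The deepest of these shared sites was an intronic one in LINC00152 at chr2:87784867-87784915, with 721 reads in parental cytoplasm, 408 in KRT19 KO cytoplasm, 542 in the parental nucleus and 262 in the KRT19 KO nucleus. It carries the single C run printed above. The exonic site of LINC00973 at chr3:98701777-98701816 had 791, 545, 71 and 69 reads. Exonic sites of LINC00630 (166, 249, 27 and 18 reads) and of LINC00472 (175, 174, 66 and 69 reads) also had more reads in each cytoplasm than in each nucleus. The exonic site of LINC00669, the one with several C runs, had 67, 174, 118 and 86 reads, so the fractions overlapped. An antisense-class site of LINC01004 at chr7:104651019-104651046 was highest in the KRT19 KO nucleus, with 65, 57, 26 and 189 reads.

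**Figure D5:**
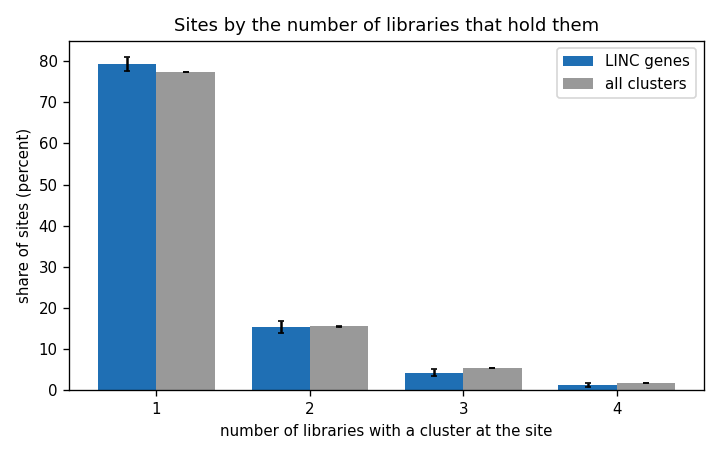
Share of merged sites (percent) by the number of libraries that hold a cluster there, for LINC genes (blue, 2142 sites) and for all clusters (grey), with 95% Wilson intervals. In both sets nearly all sites are in 1 or 2 libraries, with 79.3% of LINC sites and 77.4% of all sites in 1 library.

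Between libraries taken as pairs, 25.1% of the LINC clusters of KRT19 KO cytoplasm (21.8 to 28.8) overlapped a cluster of parental cytoplasm, against 28.9% of all clusters, and 19.3% of those of parental cytoplasm (16.6 to 22.2) overlapped one of KRT19 KO cytoplasm, against 25.5%. Between the nuclei the shares were 16.6% of KRT19 KO and 16.2% of parental LINC clusters, against 19.0% and 18.9%. Between the fractions, 20.03% of cytoplasmic (17.35 to 23.0) and 22.1% of nuclear LINC clusters (19.2 to 25.3) overlapped in parental cells, against 21.5% and 21.6% of all clusters. In KRT19 KO cells the shares were 17.4% (14.55 to 20.7) and 15.2% (12.65 to 18.0), against 21.9% and 19.55% of all clusters. Leaving out the 3 genes listed in parental cytoplasm alone, 21.5% of the LINC clusters of that library overlapped one of KRT19 KO cytoplasm and 22.4% one of the parental nucleus. Distinct read sequences bear on these shares, since 28.2%, 17.2%, 41.3% and 36.9% of LINC clusters in parental cytoplasm, KRT19 KO cytoplasm, the parental nucleus and the KRT19 KO nucleus rest on 1 distinct sequence, and the part this plays in the overlap was not tested.

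LINC clusters held C runs about as often as clusters of all genes. A run of at least 3 C (CCC on the transcribed strand) was present in 42.9% of LINC clusters in parental cytoplasm (39.5 to 46.4), 39.4% in KRT19 KO cytoplasm (35.5 to 43.4), 45.1% in the parental nucleus (41.4 to 48.8) and 44.1% in the KRT19 KO nucleus (40.4 to 47.9). Over all clusters the shares were 40.0%, 40.8%, 45.4% and 45.1%, and each lay inside the interval of the LINC share. Antisense-named genes had 41.0% to 48.2% and genes named after a clone (RP and digits) 39.6% to 46.3%. Exonic LINC clusters held CCC in 51.7%, 49.2%, 46.9% and 51.9%, with wide intervals from 27 to 65 clusters per library.

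The share of LINC reads that carried a T-to-C change was 67.6% in parental cytoplasm, 66.7% in KRT19 KO cytoplasm, 72.6% in the parental nucleus and 78.0% in the KRT19 KO nucleus, against 66.4%, 59.6%, 72.9% and 76.7% over all clusters. Within LINC genes the exonic reads had the lower share in every library, with 54.3%, 57.6%, 66.1% and 71.9%, against 70.4%, 69.4%, 72.6% and 78.2% of intronic reads. Other lincRNA genes showed the same order, with 56.3%, 56.4%, 60.9% and 63.8% of exonic reads. Their intronic reads had 69.5%, 66.9%, 72.0% and 76.3%. By gene the share ran from 49.8% in LINC00973 to 87.4% in LINC00478 among the first 10 genes by level. The conversion share was lower in the cytoplasm for exonic LINC reads, for intronic LINC reads and over all clusters, so this was not particular to exonic reads. The part of unconverted reads in the difference between cytoplasmic and nuclear exonic levels was not tested.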

How the data were processed

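The authors treated cells with 4-thiouridine, recovered HNRNPK-bound RNA, removed duplicate reads by sequence and molecular identifier, aligned to hg19 (the labels name hg38 for the series) and called clusters with PARalyzer in PARpipe. The aligner is not given in the sources used here. The deposited tables, 1 per library, hold raw read counts per cluster, with fraction, score and log10 columns made by the authors that were not used in any result. The column of unique reads was read as distinct read sequences. Cluster sequences were compared with GRCh37, and gene positions were taken from GENCODE v44lift37 and RefSeq names, which matched 183 of 192 genes. The 17 RNA-seq samples were not used here.

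Members and lists were chosen with earlier results of these data known. Reads were summed per gene and divided by all reads in clusters of the library. Log2 ratios used a pseudocount of 1 read, a minimum of 50 reads in the pair and a limit of 2-fold. Scripts ran in Python 3.11.15 with scipy 1.17.1 and were tested on simulated data. Genes were named when among the first 10 by mean level, the first 5 by clusters, the 3 largest or 3 smallest ratios of a comparison, or on 1 of 2 lists (12 RNAs with a known role, 9 with a small protein). Alternatives were another fold, read minimum, pseudocount, scaling, cluster filter, name pattern and overlap. Leaving out the 3 genes listed in parental cytoplasm alone was chosen after seeing the data.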

Additional observations from a re-analysis of the deposited data

Results flagged for a closer look

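Some LINC genes moved in opposite directions under the same contrast, with both counting intervals off 0 on the rpm scale. These differences were not tested, since each condition is 1 library. The rule was not applied to all genes, so the number of LINC genes has no background. Between KRT19 KO and parental, the sign was the same in both fractions in only 60.6% of 7953 genes of any name. KRT19 KO against parental was lower in the cytoplasm and higher in the nucleus for 4 genes. LINC00271 had log2 ratios of -0.84 and 1.58, a difference of -2.42. LINC01004 had -0.63 and 0.68, a difference of -1.30. LINC01031 had -0.32 and 0.55, a difference of -0.87, and its cytoplasmic interval ended just under 0, at -0.0093. With the median-of-ratios scaling its cytoplasmic ratio was nearer 0, at -0.23. LINC00472 had -0.49 and 0.24, a difference of -0.73. Cytoplasm against nucleus was lower in parental and higher in KRT19 KO cells for LINC00094 (now the protein-coding BRD3OS), with log2 ratios of -1.09 and 2.79, a difference of -3.88, from 30 and 41 reads in parental and 105 and 7 in KRT19 KO cells, 100 of the 105 in 1 cluster. With the median-of-ratios scaling its parental value was -0.44, inside the 2-fold limit. The causes were not tested.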

How the results depend on the processing

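Libraries are listed in the order parental cytoplasm, KRT19 KO cytoplasm, parental nucleus, KRT19 KO nucleus, and comparisons in the order KRT19 KO against parental in cytoplasm, in nucleus, then cytoplasm against nucleus in parental and in KRT19 KO cells. Of 168 values under an alternative, 94 stayed within the main value's counting interval or within 1.5 times its count, and 74 moved. All names that start with LINC, an overlap of 10 nt, a pseudocount of 5 and the median-of-ratios scaling moved none of these values, but the scaling turned the split into genes higher and lower in the cytoplasm from 9 and 18 to 12 and 7 in parental cells, and from 9 and 23 to 14 and 15 in KRT19 KO cells. No paired analysis was possible because each condition has 1 library.
Clusters of at least 10 reads gave LINC genes in 60 and 53 in the cytoplasms, shares of reads of 0.239% and 0.145%, a share of clusters of 0.301%, intronic clusters of 73.3% and CCC in 47.0% (parental cytoplasm), and T-to-C shares of 61.3%, 60.8%, 67.8% and 73.8%. Overlaps were 32.2% and 24.04% between the cytoplasms, 27.3% of parental and 23.1% of KRT19 KO cytoplasmic clusters with the nucleus.
Clusters of at least 2 conversion locations gave 47, 59, 30 and 29 genes, shares of reads of 0.231%, 0.147%, 0.317% and 0.3495%, of clusters of 0.303% (KRT19 KO cytoplasm) and 0.282% (parental nucleus), intronic clusters of 80.0% in the latter, CCC in 49.5%, 62.1% and 54.7% (all but KRT19 KO cytoplasm), and T-to-C shares of 61.3%, 62.9%, 63.0% and 68.8%. Overlaps were 28.99% of parental cytoplasmic clusters, 26.0% and 26.9% between nuclei, and 43.5% and 34.7% of parental and KRT19 KO nuclear clusters with the cytoplasm.
Without LINC00669 the shares of clusters were 0.302%, 0.257%, 0.263% and 0.260%, of reads 0.218%, 0.134%, 0.2675% and 0.262%, and of intronic clusters 73.9%, 71.2%, 79.9% and 78.3%, and the T-to-C share was 66.7% in parental cytoplasm. Without the 3 genes listed in parental cytoplasm alone, that library had 0.341% of clusters, 0.226% of reads and 82.0% of clusters in introns. Distinct reads gave read shares of 0.158%, 0.336% and 0.346% in the last 3 libraries, and leaving out each cytoplasmic library's deepest cluster 0.275% and 0.168%.
Genes past the fold numbered 20, 16, 27 and 32, of 43, 44, 50 and 42 tested. They were 12, 7, 14 and 19 at 4-fold, 43, 39, 45 and 56 with 20 reads, and 13, 2, 6 and 13 with distinct reads, where fewer genes had enough reads (4 higher and 9 lower in the first comparison, 0 and 2 in the second). With 100 reads they were 8, 15 and 20 in the last 3 comparisons. The read minimum also changes how many genes are tested, with 75 in the first comparison at 20 reads. Shares over all genes were not computed at these other settings, so the counts cannot be set against a background.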
